A study of Mus musculus with 8 samples.

Results

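The genes described are 10 components of G12/13, Gq and RhoGEF signalling (RhoGEFs are guanine nucleotide exchange factors of RhoA-family GTPases), the intracellular routes that are linked to the adhesion receptor GPR56 (gene Adgrg1). They are the G alpha subunit genes Gna12, Gna13, Gnaq and Gna11, the RhoGEF genes Arhgef1, Arhgef11 and Arhgef12, the GTPase gene Rhoa, the kinase gene Prkca and the transglutaminase gene Tgm2. They were taken by symbol from the name column of the deposited tables, with the transcript suffix removed and the reads of all transcripts of a gene summed. All 10 of the 10 symbols were found, among 22026 gene names in all. Bulk RNA was sequenced from a pair of BALB/c mammary carcinoma lines of the mouse, 4T1 and TS/A, grown in RPMI with 10% FCS. The 4 groups, of 2 libraries each, were 4T1 with a virus vector expressing Gpr56/Adgrg1, 4T1 with the empty vector, TS/A labelled as carrying the Gpr56 vector, and TS/A with the empty vector. The design text has the transduced cells on type III collagen, a GPR56 ligand, for 72 h before RNA extraction. The titles set Emp_Control against Emp_ColIII for the same groups that the characteristics set apart by vector, so collagen and vector cannot be told apart from the labels alone. The labels name neither the promoter of the vector nor whether the transduced lines are clones or pools. The labels do not say whether the 2 libraries of each group are separate cultures, and what the p-values below measure is the spread between these libraries, which may be technical.

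Heterotrimeric G proteins relay the activation of a receptor to the inside of the cell. The G12/13 class binds RhoGEFs that carry an RGS homology domain, and these load GTP onto RhoA, which then acts on the actin cytoskeleton. The Gq class activates phospholipase C beta, which leads to calcium release and to activation of protein kinase C. GPR56 has been tied to both routes, and transglutaminase 2 is an extracellular matrix partner that binds its ectodomain.

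Library depth ran from 10510569 reads (4T1 Gpr56 library 2) to 25959142 reads, and the 10 genes took 0.0968% to 0.123% of each library. Levels below are CPM, read counts scaled to library size with TMM factors over the 8 libraries. Summed CPM of cell type markers used library totals without TMM factors. A gene is called changed where the Benjamini-Hochberg adjusted p of edgeR's quasi-likelihood test over all tested genes was under 0.05. Replicate spread was far from even: the biological coefficient of variation was 5.47% among the 4T1 libraries and 19.6% among the TS/A libraries. The 2 TS/A empty libraries differed from each other, with 9 of the 10 genes higher in library 1 than in library 2. The ratios of library 1 to library 2 were 0.798 to 1.73 over the 10 genes. In 4T1 with the empty vector the same ratio was 0.907 to 1.13. The share of all genes higher in TS/A empty library 1 was not computed, and which library departs cannot be told from 2. Adgrg1 itself read 90.5 and 100.1 CPM in 4T1 with the Gpr56 vector, against 2.53 and 2.77 CPM with the empty vector. In TS/A it read 22.6 and 13.3 CPM in the libraries labelled Gpr56, against 34.8 and 16.3 CPM in those labelled empty, so the receptor gene told the vectors apart in 4T1, while in TS/A its groups overlapped at a log2 fold change of -0.51 (SE 0.41, edgeR adjusted p = 1). Epithelial markers, checked because both lines are mammary carcinoma lines, summed to 2426 and 2439 CPM in 4T1 with the Gpr56 vector and to 1683 and 1669 CPM with the empty vector. In TS/A they summed to 205 and 257 CPM in the libraries labelled Gpr56 and to 190 and 201 CPM in those labelled empty. Epcam, Cdh1 and Cldn7 each reached 0 in at least 1 library, and the lowest values of Krt8 and Cldn4 were 0.138 and 0.041 CPM. Krt18 was at 148 CPM or more and Krt19 at 30.6 CPM or more in all 8 libraries. The share of the RNA that each cell type gives and the RNA per cell cannot be told apart in bulk libraries.

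Promoter windows from 250 bases before to 50 bases after the start (RefSeq, GRCm38.p6) were found for 9 of the 10 genes, 11 windows in all. The windows printed below are that of the upstream start of Arhgef1, the gene with the most significant change in 4T1, and those of Gnaq and Prkca, which moved in opposite directions in each of the comparisons below that called them. Capitals mark the GC box GGGCGG, or CCGCCC on the other strand, the core letters bound by Sp1-family factors, with overlapping matches kept. All are written 5′ to 3′ along the strand of the gene.
Arhgef1 upstream start, chr7:24902736-24903035, plus strand: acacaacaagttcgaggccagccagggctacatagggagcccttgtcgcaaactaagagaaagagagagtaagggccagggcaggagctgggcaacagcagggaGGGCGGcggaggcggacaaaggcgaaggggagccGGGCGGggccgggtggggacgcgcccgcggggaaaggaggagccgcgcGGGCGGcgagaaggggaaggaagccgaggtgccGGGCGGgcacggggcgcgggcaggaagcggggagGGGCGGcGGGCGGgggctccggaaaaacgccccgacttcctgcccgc
Gnaq, chr19:16132434-16132733, plus strand: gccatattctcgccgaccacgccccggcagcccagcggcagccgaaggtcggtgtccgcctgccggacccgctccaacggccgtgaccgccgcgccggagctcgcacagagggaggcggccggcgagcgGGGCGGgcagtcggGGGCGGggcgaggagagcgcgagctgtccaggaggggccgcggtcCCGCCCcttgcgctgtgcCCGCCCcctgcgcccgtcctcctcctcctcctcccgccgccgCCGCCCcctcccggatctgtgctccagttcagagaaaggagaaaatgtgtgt
Prkca, chr11:108343839-108344138, minus strand: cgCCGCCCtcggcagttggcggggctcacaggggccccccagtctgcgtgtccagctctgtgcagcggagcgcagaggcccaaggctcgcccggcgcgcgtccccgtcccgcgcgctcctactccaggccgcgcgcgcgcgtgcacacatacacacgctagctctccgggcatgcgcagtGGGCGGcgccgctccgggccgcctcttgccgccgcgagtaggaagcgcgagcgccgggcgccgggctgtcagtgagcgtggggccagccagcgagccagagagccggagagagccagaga
The upstream Arhgef1 window holds 6 GC boxes and 32 CpG dinucleotides. Gnaq holds 5 GC boxes and 39 CpG, and Prkca holds 2 GC boxes and 42 CpG. The Gnaq window ends before 16132831, the first base of its listed transcript. The Prkca window covers the start of the long Prkca transcript, not that of the short one at 107979639. A GC box was present in 10 of the 11 windows, all but 1 of the 2 Rhoa windows, and in 35.7% of 32851 windows of the same length over all genes. The 11 windows held 21 to 53 CpG, against a median of 7 over all windows, of which 24.8% held at least 21. All windows were counted, whether or not their genes had reads in these libraries.

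Per transcript length, Rhoa was by far the most abundant of the 10. Its summed RPKM (reads scaled to transcript length and library size, the authors' values added over transcripts) was 216 and 234 in 4T1 with the Gpr56 vector, 235 and 242 in 4T1 with the empty vector, 235 and 249.5 in TS/A labelled Gpr56, and 226 and 258 in TS/A labelled empty. RhoA is the GTPase on which the RhoGEFs act, and it ranked first of the 10 in all 8 libraries. In 4T1 Arhgef1 came second, at 57.6 and 55.5 RPKM with the Gpr56 vector and 41.6 and 38.6 RPKM with the empty vector, and Gna11 came next, at 29.8 and 33.0 RPKM with the Gpr56 vector and 27.58 and 27.57 RPKM with the empty vector. Gna12 and Gna13 followed at 15.6 to 17.5 RPKM, and their ranges overlapped with the empty vector. Gnaq and Arhgef12 came next at 9.12 to 11.96 RPKM and overlapped in both 4T1 groups. Prkca, Tgm2 and Arhgef11 were the lowest in 4T1, and their ranges kept apart in both groups.

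In TS/A the order of summed RPKM below Rhoa was different. Gna13 was second in all 4 TS/A libraries, at 20.0 and 19.5 RPKM in those labelled Gpr56 and 26.1 and 17.3 RPKM in those labelled empty. Its short transcript Gna13_1, with 3.30% to 6.45% of Gna13 reads, gave 4.61 to 5.65 RPKM of this. The long Gna13_2 alone had 15.4 and 13.8 RPKM in the libraries labelled Gpr56 and 21.2 and 11.8 RPKM in those labelled empty. Gna13_2 lay above Gna11 only in TS/A empty library 1, so the second place of Gna13 rests on adding the transcripts. Gna11 had 16.5 to 19.4 RPKM over the 4 libraries and Arhgef1 13.4 to 21.3 RPKM. In TS/A labelled empty every pair of neighbours below Rhoa overlapped, while in TS/A labelled Gpr56 Gna11 overlapped with Arhgef1 and the lowest 3 genes overlapped with one another. Gnaq, at 3.77 to 6.26 RPKM, and Arhgef11, at 3.42 to 5.78 RPKM, shared the lowest places with Tgm2, at 4.25 to 6.83 RPKM.

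**Figure D1:**
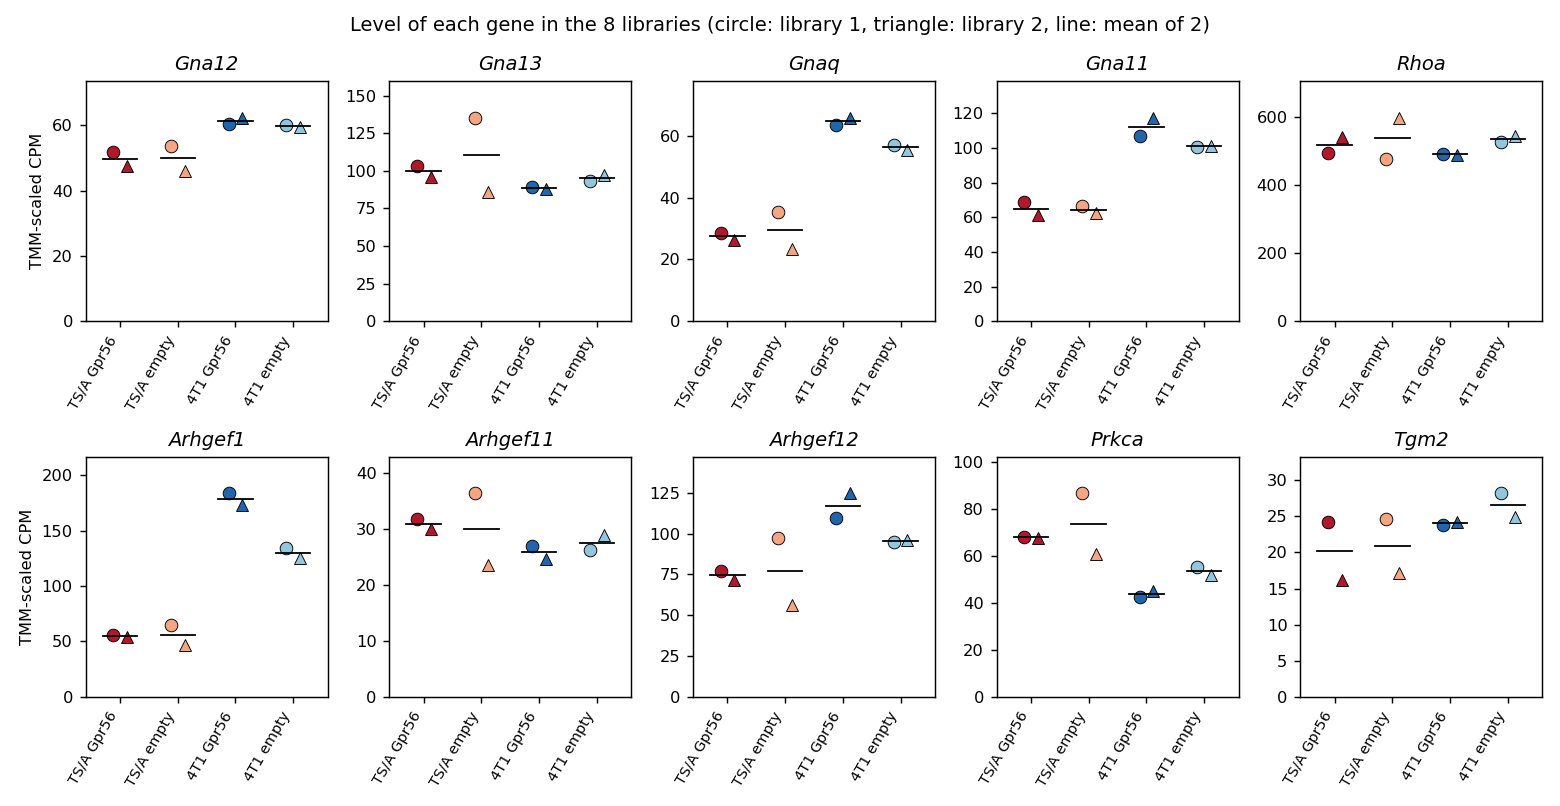
Level of each of the 10 genes in TMM-scaled CPM (vertical axis, from 0) in the 4 groups, TS/A left and 4T1 right, with a circle for library 1, a triangle for library 2 and a line at their mean. In 4T1 the Arhgef1 points with the Gpr56 vector, 184 and 173 CPM, lie above those with the empty vector, 134 and 125 CPM, while in TS/A the points labelled Gpr56 lie between those labelled empty.

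In 4T1, 3 of the 10 genes rose with the Gpr56 vector (Arhgef1, Arhgef12 and Gnaq) and 1 fell (Prkca), while 6 were not called. Over all 11361 genes tested, 11.5% were called higher and 11.3% lower, so that 3 higher of 10 lies above that share and 1 lower of 10 close to it, in a list of only 10. The median log2 fold change was -0.03 over the 10 genes and -0.0004 over all genes. With library totals in place of TMM the calls over all genes were 1624 higher and 1042 lower, against 1308 and 1280 with TMM, and the 10 genes still gave 3 higher and 1 lower. The comparison asks whether these genes differ between the vector groups of 4T1, where vector and collagen cannot be told apart from the labels alone.

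Among the RhoGEFs, Arhgef1 (p115-RhoGEF, which both activates RhoA and speeds GTP hydrolysis on G alpha 12 and 13) gave the largest change of the 10. It lies on chromosome 7 at 24902912 to 24926594 of GRCm38 (ENSMUSG00000040940). It had 184 and 173 CPM in 4T1 with the Gpr56 vector, against 134 and 125 CPM with the empty vector. Both Gpr56 libraries lay above both empty libraries by more than the gap within either pair. The log2 fold change was 0.46 (SE 0.06, adjusted p = 7.57e-05), a 1.38-fold increase. Arhgef12 (LARG, on chromosome 9 at 42963842 to 43107239, minus strand), a RhoGEF that binds G alpha 12/13 and Gq, had 109 and 125 CPM with the Gpr56 vector, against 95.01 and 95.99 CPM with the empty vector. The groups did not overlap, although the Gpr56 libraries spread more than the empty ones. Its log2 fold change of 0.28 had a standard error of 0.07 (adjusted p = 0.0066). Arhgef11 (PDZ-RhoGEF, on chromosome 3 at 87617559 to 87738034), the least abundant of the RhoGEFs per length, had 27.0 and 24.7 CPM with the Gpr56 vector, against 26.2 and 28.8 CPM with the empty vector. Its groups overlapped, and its log2 fold change was -0.08 (SE 0.10, adjusted p = 0.61). In its most read transcript, Arhgef1 shares no stretch of 50 bases with another annotated gene. Of such stretches in the most read transcript, 12.98% in Arhgef12 and 14.0% in Arhgef11 are shared, in Arhgef11 with the overlapping gene Lrrc71. Other transcripts of these genes were not searched.

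Of the G alpha genes, Gnaq (G alpha q, on chromosome 19 at 16132831 to 16387463) had 63.7 and 66.0 CPM in 4T1 with the Gpr56 vector, against 57.3 and 55.5 CPM with the empty vector. The groups did not overlap, and the log2 fold change was 0.20 (SE 0.07, adjusted p = 0.040). Its close relative Gna11 (G alpha 11, on chromosome 10 at 81528724 to 81545190, minus strand) had 106.9 and 117.6 CPM with the Gpr56 vector, against 100.6 and 101.4 CPM with the empty vector, a log2 fold change of 0.15 (SE 0.06) that was not called (adjusted p = 0.11). Its groups did not overlap either. Gna12 (on chromosome 5 at 140758408 to 140830431, minus strand) had 60.3 and 62.3 CPM with the Gpr56 vector, against 60.2 and 59.6 CPM with the empty vector (log2 fold change 0.03, adjusted p = 0.77). Gna13 (on chromosome 11 at 109362831 to 109401369) had 89.3 and 87.6 CPM with the Gpr56 vector, against 93.3 and 96.97 CPM with the empty vector (log2 fold change -0.11, adjusted p = 0.23). The 95% intervals of these differences were -0.11 to 0.17 for Gna12 and -0.23 to 0.02 for Gna13. Gnaq was no longer called when a single library was left out, either 4T1 empty library 1 (adjusted p = 0.13), 4T1 empty library 2 (0.29) or 4T1 Gpr56 library 2 (0.092).

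Prkca encodes protein kinase C alpha, a kinase activated by the diacylglycerol and calcium that Gq signalling releases. The gene (on chromosome 11 at 107933387 to 108343928, minus strand) had 42.6 and 45.1 CPM in 4T1 with the Gpr56 vector, against 55.0 and 51.7 CPM with the empty vector. Both Gpr56 libraries lay below both empty libraries, and the log2 fold change was -0.29 (SE 0.07, adjusted p = 0.011). Leaving out 4T1 empty library 1 (adjusted p = 0.16) or 4T1 Gpr56 library 1 (0.061) ended this call. Rhoa (on chromosome 9 at 108306129 to 108337934) had 493 and 491 CPM with the Gpr56 vector, against 528 and 545 CPM with the empty vector. The groups did not overlap, and the log2 fold change of -0.13 (SE 0.05) was not called (adjusted p = 0.091). Tgm2 (on chromosome 2 at 158116402 to 158146436, minus strand), the transglutaminase partner, had 23.8 and 24.3 CPM with the Gpr56 vector, against 28.2 and 24.85 CPM with the empty vector, a log2 fold change of -0.14 that was not called (SE 0.11, adjusted p = 0.37). Of 50-base stretches in the most read transcript, 25.1% in Rhoa and 18.8% in Tgm2 are shared with another annotated gene. Tgm2 overlaps exons of genes on the other strand, Gm20412 over 633 bases and the protein-coding gene Rprd1b over 370 bases. The library kit does not mark strand.

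Over the 10 genes, 9 had groups that did not overlap in 4T1, 5 of them higher with the Gpr56 vector and all but Arhgef11, against 61.7% of all tested genes. The calls in 4T1 rest on the spread of the 4T1 libraries alone. In a fit of all 8 libraries, where both lines share 1 estimate of the spread, 0.226% of all genes were called in 4T1 in either direction and 0 of the 10 genes, with 1 of them (Arhgef1) at an unadjusted p under 0.05. The adjusted p there was 0.30 for Arhgef1, 0.72 for Arhgef12, 0.77 for Gnaq and 0.61 for Prkca, with log2 fold changes of 0.46, 0.29, 0.20 and -0.28. DESeq2 on the 4T1 libraries called 2 of the 10, Arhgef1 and Arhgef12, with adjusted p = 0.19 for Gnaq and 0.071 for Prkca.

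**Figure D2:**
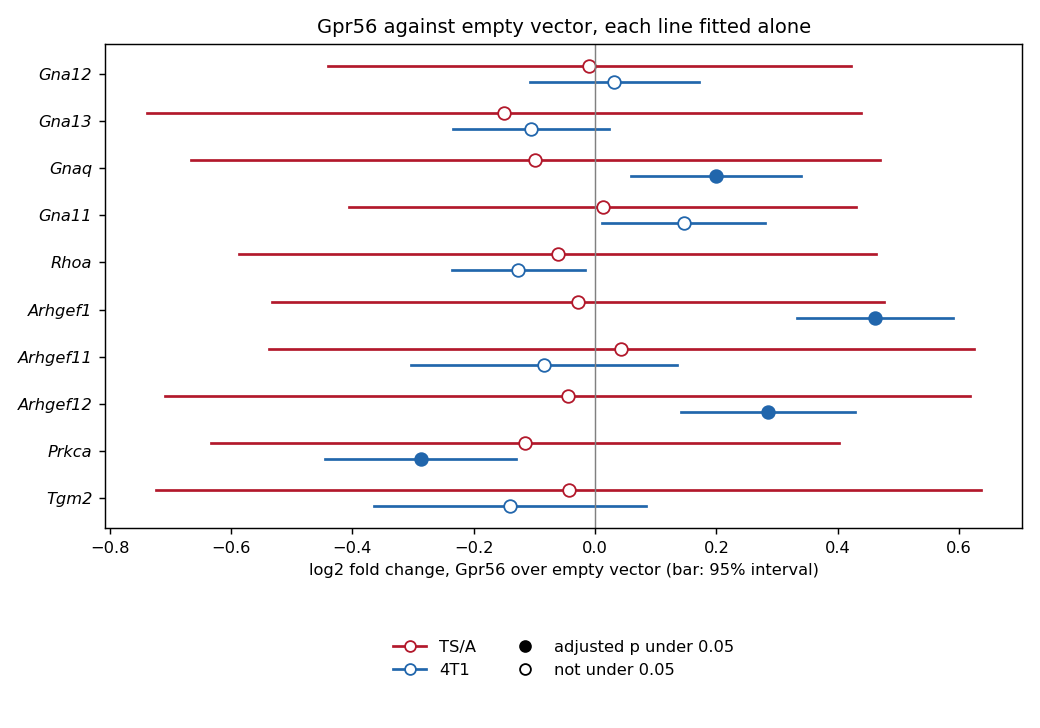
Log2 fold change of each gene for the Gpr56 over the empty vector (horizontal axis), TS/A above 4T1 in each row, with 95% intervals as bars and filled points where the adjusted p was under 0.05. In 4T1 Arhgef1, Arhgef12 and Gnaq lie right of 0 and Prkca left of it, while every TS/A interval spans 0.

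The authors' tables assign reads to single transcripts, which gives a view below the gene. The 4 genes called in 4T1 were looked at this way after their values were seen, and so were Arhgef11_3 and Rhoa_2. Libraries of 1 group could differ widely. Arhgef11_3 took 0% and 15.6% of Arhgef11 reads in 4T1 with the Gpr56 vector, against 35.1% and 28.0% with the empty vector. Rhoa_2 took 0.864% and 5.98% of Rhoa reads with the Gpr56 vector, against 2.86% and 3.23% with the empty vector. Arhgef1_4 had 0 and 158 reads in the TS/A libraries labelled Gpr56, against 58 and 79 in those labelled empty. Arhgef1 has 11 listed transcripts. The 5 that begin at the upstream start include Arhgef1_2, whose first base, 24903037, lies just past the upstream promoter window printed above, and the 4 at the downstream start include Arhgef1_8, the most abundant of them. Arhgef1_2 and Arhgef1_8 share all 28 of their coding exons, so they differ outside the coding exons. The upstream-start transcripts took 63.8% and 70.4% of Arhgef1 reads in 4T1 with the Gpr56 vector, against 41.5% and 56.1% with the empty vector. In TS/A they took 71.4% and 68.4% in the libraries labelled Gpr56, against 58.2% and 55.2% in those labelled empty. The groups did not overlap in either line, with the higher share in 4T1 with the Gpr56 vector and in the TS/A libraries labelled Gpr56, in which Adgrg1 was not higher than in those labelled empty. The 95% Wilson intervals of these shares, which cover counting error only, were 1.504 to 3.30 percentage points to each side. Within 1 line, 2 libraries against 2 allow a two-sided exact permutation p of 0.333 at the smallest, so that test cannot reach 0.05. The shares are given as a description, and how often such shares keep apart over all genes was not computed.

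Tested one transcript at a time, Arhgef1_2 had a log2 fold change of 0.80 in 4T1 (SE 0.18, adjusted p = 0.27), Arhgef1_4, also from the upstream start, one of 1.36 (SE 0.25, adjusted p = 0.24), and Arhgef1_8 one of -0.19 (SE 0.25, adjusted p = 0.85). None of these was called, and the share of all 24822 transcripts called in 4T1 by edgeR was 0%, with 3064 at an unadjusted p under 0.05, among them 6 of the 22 tested transcripts of the 10 genes. Prkca has a long transcript, Prkca_1, and a short one, Prkca_2, with 6 of its 7 coding exons in common with the long one. Prkca_2 took 22.1% and 27.0% of Prkca reads in 4T1 with the Gpr56 vector, against 13.2% and 15.8% with the empty vector. In TS/A it took 17.7% and 24.7% in the libraries labelled Gpr56, against 20.7% and 23.8% in those labelled empty, where the groups overlapped. The long transcript had a log2 fold change of -0.46 in 4T1 (SE 0.09, adjusted p = 0.26) and the short one of 0.49 (SE 0.25, adjusted p = 0.54). Summed RPKM, which gives a read of a short transcript more weight, was 8.30 ± 0.851 for Prkca in 4T1 with the Gpr56 vector and 8.23 ± 0.117 with the empty vector (SD, n = 2 each), so that the fall in Prkca reads has no counterpart on that scale. Arhgef12_1 took 47.9% and 47.5% of Arhgef12 reads in 4T1 with the Gpr56 vector, against 42.9% and 37.3% with the empty vector. The direction was opposite in TS/A, at 36.2% and 34.1% in the libraries labelled Gpr56, against 40.4% and 45.6% in those labelled empty; the difference between the vector effects on this transcript was not called (adjusted p = 0.87). Gnaq has 1 listed transcript.

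**Figure D3:**
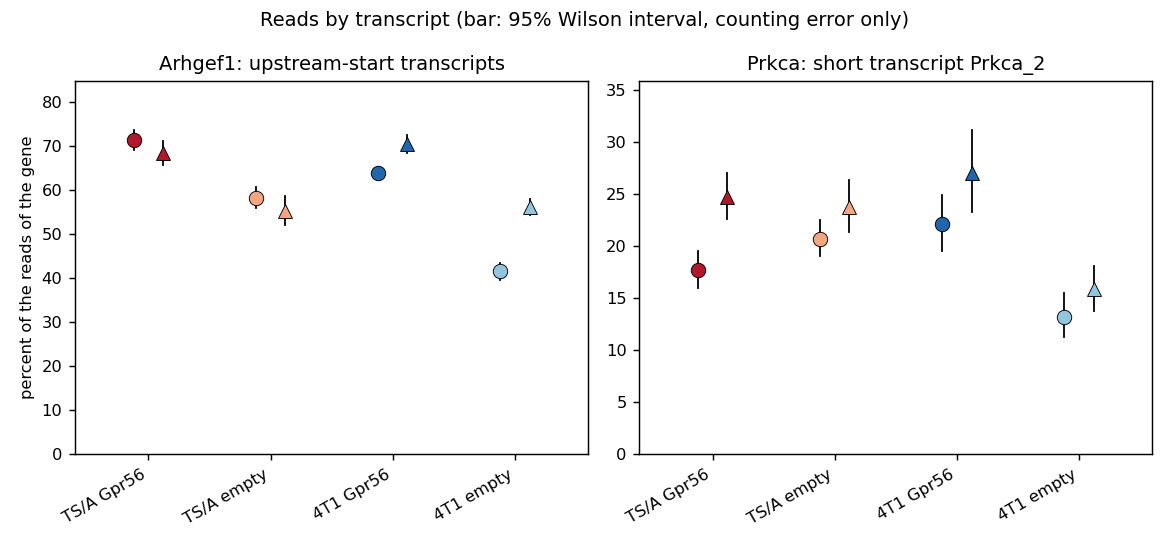
Percent of the reads of Arhgef1 given to upstream-start transcripts (left) and of Prkca given to the short transcript Prkca_2 (right) in each library, with 95% Wilson intervals as bars, circles for library 1 and triangles for library 2. The Arhgef1 share is 63.8% and 70.4% in 4T1 with the Gpr56 vector against 41.5% and 56.1% with the empty vector, and 71.4% and 68.4% in TS/A labelled Gpr56 against 58.2% and 55.2% in TS/A labelled empty, and the Prkca_2 share is 22.1% and 27.0% in 4T1 with the Gpr56 vector against 13.2% and 15.8% with the empty vector, with overlapping groups in TS/A.

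In TS/A none of the 10 genes was called. Their log2 fold changes ran from -0.15 (Gna13) to 0.04 (Arhgef11), with a median of -0.04 against -0.02 over all genes. The call rate over all 11276 tested genes was 0%, with 115 genes and 0 of the 10 at an unadjusted p under 0.05; DESeq2 called 3 genes, none of the 10. Arhgef1 had 55.8 and 54.1 CPM in TS/A labelled Gpr56, against 65.2 and 46.8 CPM in TS/A labelled empty. Both Gpr56 libraries lay between the empty ones, as they did for 8 of the 10 genes. The share of all tested genes with this order was not computed. Gna13, a G alpha subunit that binds all 3 of these RhoGEFs, had the largest log2 fold change in size, with 103 and 95.99 CPM in the libraries labelled Gpr56, against 135 and 86.1 CPM in those labelled empty. Gna11 and Tgm2 were the exceptions, with Gna11 at 68.8 and 61.1 CPM in the libraries labelled Gpr56, against 66.3 and 62.4 CPM in those labelled empty. Groups that did not overlap were found for 0 of the 10 genes, against 21.7% of all tested genes. The 95% interval was -0.53 to 0.48 for Arhgef1, -0.71 to 0.62 for Arhgef12 and -0.67 to 0.47 for Gnaq, each wide enough to hold the value seen in 4T1.

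The vector effect in TS/A minus that in 4T1 was tested in the fit of 8 libraries, where 0.0668% of all 11970 genes were called in either direction. It was called for 0 of the 10 genes, 0 of which had an unadjusted p under 0.05, by edgeR, and for 0 by DESeq2, which called 66 genes in all. Of the 8 genes called, 2 were higher and 6 lower, and with library totals 0 were higher and 4 lower. The largest difference was that of Arhgef1, -0.49 (SE 0.22, adjusted p = 0.78), with a 95% interval that ended at 0.02. Arhgef12 followed at -0.34 (SE 0.32, adjusted p = 0.93) and Gnaq at -0.30 (SE 0.26, adjusted p = 0.92). The other 7 differences lay between -0.14 (Gna11) and 0.17 (Prkca). Without TS/A empty library 2 the difference was called for 3 of the 10, Arhgef1 (-0.70, adjusted p = 0.0023), Arhgef12 (-0.67, 0.0046) and Gnaq (-0.56, 0.012), and without TS/A empty library 1 for 0, with -0.23 for Arhgef1. Both values rest on a single TS/A empty library, whose spread is then taken from the other groups.

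The lines themselves differed in these genes. With the empty vector, 1 of the 10 was called higher in TS/A than in 4T1 (Prkca) and 3 lower (Arhgef1, Gnaq and Gna11), where 23.9% of all 11970 genes were higher and 23.5% lower, so that neither count stands far from the background. The median log2 fold change was -0.29 over the 10 genes and 0.01 over all genes. Arhgef1 had 65.2 and 46.8 CPM in TS/A, against 134 and 125 CPM in 4T1. Every TS/A library lay below every 4T1 library, also in those with the Gpr56 label, at 55.8 and 54.1 CPM in TS/A against 184 and 173 CPM in 4T1. With the empty vector the log2 fold change was -1.21 (SE 0.16, adjusted p = 5.40e-04), so the level in TS/A was 0.432 of that in 4T1.

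Both Gq-class genes were lower in TS/A. Gnaq had 35.4 and 23.5 CPM in TS/A with the empty vector, against 57.3 and 55.5 CPM in 4T1 with the empty vector (-0.93 on the log2 scale, SE 0.18, adjusted p = 0.0039). Gna11 had 66.3 and 62.4 CPM in TS/A, against 100.6 and 101.4 CPM in 4T1 (-0.65, SE 0.12, adjusted p = 0.0026). Neither gene's groups overlapped, and the Gna11 libraries lay closer together within TS/A than those of Gnaq. The G12/13-class genes were not called: Gna12 had 53.8 and 45.9 CPM in TS/A, against 60.2 and 59.6 CPM in 4T1 (-0.26, SE 0.12, adjusted p = 0.11), and Gna13 had 135 and 86.1 CPM in TS/A, against 93.3 and 96.97 CPM in 4T1 (0.22, SE 0.19, adjusted p = 0.37). Gna12 did not overlap between the lines, while Gna13 did. Whether the Gq class differs from the G12/13 class was not tested.

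Prkca went the other way, with 86.5 and 60.5 CPM in TS/A with the empty vector, against 55.0 and 51.7 CPM in 4T1 with the empty vector. The groups did not overlap, but the TS/A libraries differed more from each other than TS/A library 2 did from 4T1. Its log2 fold change of 0.46 (SE 0.17, adjusted p = 0.0496) sat at the threshold, and the call was lost in 9 of 17 other settings. Without TS/A empty library 1 it was 0.18 (adjusted p = 0.12), without 4T1 empty library 1 it was 0.51 (0.15) and without 4T1 empty library 2 it was 0.41 (0.22). With both vectors averaged it was 0.55 (adjusted p = 0.0038). Rhoa had 478 and 599 CPM in TS/A, against 528 and 545 CPM in 4T1, a log2 fold change of 0.005 (SE 0.14, adjusted p = 0.98) with a 95% interval of -0.31 to 0.32. Arhgef11 (0.13, adjusted p = 0.62), Arhgef12 (-0.31, 0.28) and Tgm2 (-0.34, 0.25) were not called. Averaged over both vectors, Arhgef12 (-0.48, adjusted p = 0.027) and Gna12 (-0.29, 0.019) were also called lower in TS/A. Groups of the 2 lines did not overlap for 6 of the 10 genes, 1 of them higher in TS/A, against 72.6% of all tested genes. By transcript, 3 of 23 tested transcripts of these genes were called, all lower in TS/A (Arhgef1_8 at -1.47, Gnaq_1 at -0.93 and Gna11_1 at -0.64), where 11.3% of all 28446 transcripts were called. Epithelial markers moved with this comparison, 7 of 7 being called lower in TS/A, and fibroblast markers summed to 354 and 141 CPM in TS/A with the empty vector against 15.4 and 15.2 CPM in 4T1 with the empty vector. Of the single fibroblast markers, Col1a1 ranged from 0.468 to 311 CPM over the 8 libraries and Pdgfra from 7.96 to 15.0 CPM. Pdgfrb was at 0 in 3 libraries and reached 8.94 CPM, and Col1a2 reached at most 0.394 CPM. Dcn was at 0 in 7 of the 8 libraries, and Lum and Thy1 in all 8. The part of these markers in the line differences was not tested. Among the related lists, to be read against the same 23.9% higher and 23.5% lower, phospholipase C beta, IP3 receptor and other protein kinase C genes gave 2 higher and 6 lower of 13 in TS/A, receptors coupling to G12/13 or Gq 0 higher and 5 lower of 12, other RhoGEFs 4 higher and 6 lower of 17, and G beta and gamma genes 3 higher and 3 lower of 11.

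**Figure D4:**
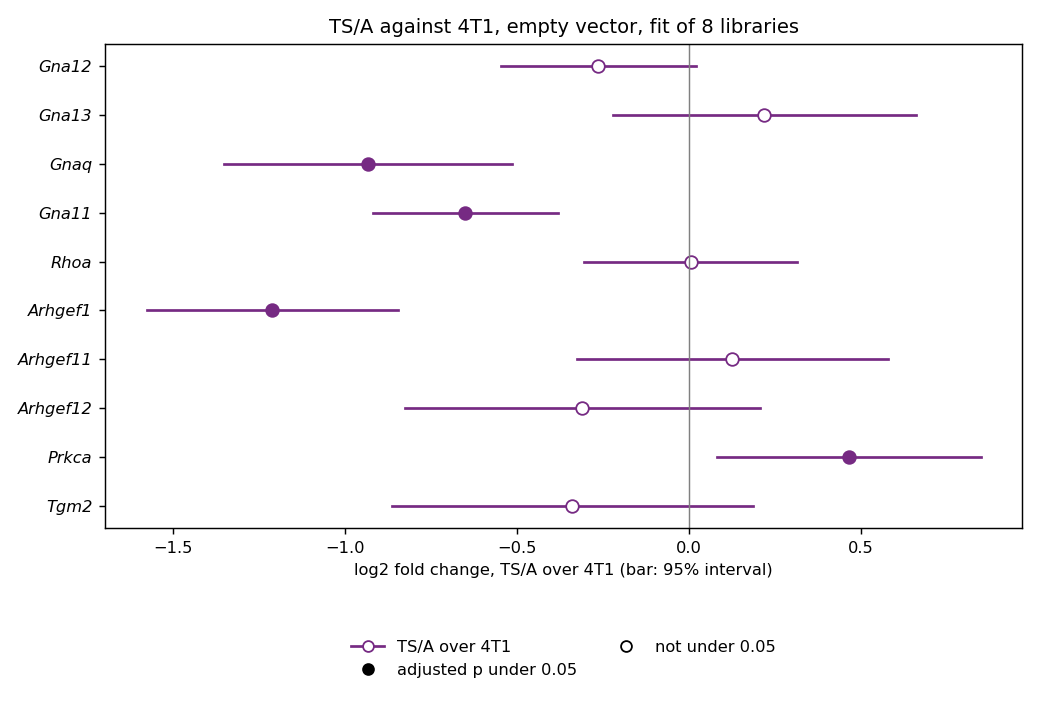
Log2 fold change of each gene for TS/A over 4T1 with the empty vector (horizontal axis), with 95% intervals as bars and filled points where the adjusted p was under 0.05. Arhgef1, Gnaq and Gna11 lie left of 0 at -1.21, -0.93 and -0.65, and Prkca lies right of it at 0.46 with an interval that comes close to 0.

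The genes whose profile over the 8 libraries was most like that of Arhgef1 were Cd276, an immune checkpoint ligand, Trpv4, a calcium-permeable channel, and St3gal2, a sialyltransferase. Their root mean square difference from Arhgef1, on the log2 CPM scale after removing each gene's mean, was 0.066, 0.071 and 0.073 among 8740 genes compared. Their log2 fold changes in 4T1 were 0.52, 0.49 and 0.42, and those between the lines -1.21, -1.27 and -1.17, close to the values of Arhgef1 by construction of the measure.

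The rest of the pathway was read from lists of G protein subunits, RhoA-family regulators and related genes, and in 4T1 most lists held calls in both directions. Each count is to be read against the 11.5% of all tested genes called higher in 4T1 and the 11.3% called lower, and with 4 to 20 tested genes a list, shares near these say nothing particular about it. The other G alpha genes gave 0 higher and 2 lower of 5 tested, and the G beta and gamma genes 0 higher and 3 lower of 11, with medians of -0.03 and -0.18. Gnb4, a G beta subunit, had 10.95 and 12.4 CPM with the Gpr56 vector, against 22.2 and 22.7 CPM with the empty vector (log2 fold change -0.96, adjusted p = 6.50e-05). Gng5, a G gamma subunit, had 80.8 and 70.7 CPM with the Gpr56 vector, against 108 and 108 CPM with the empty vector (-0.50, adjusted p = 1.05e-04). Gnai3, a Gi alpha subunit, changed little (-0.18, adjusted p = 0.027), and its call was lost in 5 of 12 other settings, among them with either 4T1 empty library left out (0.23 without the first, 0.16 without the other). Of the abundant beta subunits, Gnb1 (-0.06) and Gnb2 (0.01) were not called.

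Among the other RhoGEFs 2 were higher and 2 lower of 16 tested, with a median of -0.09. Arhgef17 (0.49, adjusted p = 1.93e-04) and Arhgef5 (0.38, adjusted p = 5.22e-04) rose, and Ect2, the RhoGEF of cytokinesis (-0.33, adjusted p = 9.00e-04), and Arhgef2, a microtubule-bound RhoGEF (-0.26, adjusted p = 0.0066), fell. RhoGAPs and RhoGDIs, which switch these GTPases off or hold them in the cytosol, gave 1 higher and 3 lower of 12, with Arhgdib at 0.51 (adjusted p = 0.016) and Arhgap5 at -0.35 (adjusted p = 0.0056). The call of Arhgdib was lost with DESeq2 (0.081), without 4T1 empty library 1 (0.11) and without 4T1 Gpr56 library 1 (0.087). Other RhoA-family GTPases and effectors gave 4 higher and 3 lower of 20. The RhoA homologue Rhoc had 139 and 154 CPM with the Gpr56 vector, against 198 and 195 CPM with the empty vector (-0.43, adjusted p = 1.67e-04). The RhoA-binding protein gene Rhpn2 (0.88, adjusted p = 9.84e-04) rose, while the kinase Pkn2 fell (-0.26, adjusted p = 0.0051). The RhoA-activated kinase genes Rock1 (0.03) and Rock2 (-0.04) were not called. Leaving out 4T1 empty library 1 ended the calls of Arhgef2 (0.066) and Pkn2 (0.067).

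On the Gq side, phospholipase C beta, IP3 receptor and other protein kinase C genes gave 1 higher and 2 lower of 13. Plcb3, a phospholipase C beta that Gq activates, had 132 and 138 CPM with the Gpr56 vector, against 101.4 and 96.1 CPM with the empty vector (0.45, adjusted p = 9.37e-05). Plcb4, of the same family, was not called (-0.18). Prkd3 (-0.33, adjusted p = 0.0022) and the IP3 receptor gene Itpr1 (-0.25, adjusted p = 0.013) fell, and Itpr1 lost its call with DESeq2 (0.089) and without 4T1 empty library 1 (0.095), 4T1 empty library 2 (0.084) or 4T1 Gpr56 library 1 (0.058). Regulators of G protein turnover and receptor desensitisation gave 3 higher and 3 lower of 16. Rgs16, which speeds GTP hydrolysis on Gi and Gq subunits, had 207 and 209.5 CPM with the Gpr56 vector, against 131 and 141 CPM with the empty vector (0.61, adjusted p = 4.20e-06), and the receptor kinase Grk2 rose by 0.26 (adjusted p = 0.0032). Receptors that couple to G12/13 or Gq gave 4 higher and 1 lower of 12. The protease-activated receptor gene F2rl1 (0.70, adjusted p = 7.16e-06) and the bradykinin receptor gene Bdkrb2 (0.30, adjusted p = 0.0025) rose. The lysophosphatidic acid receptor gene Lpar1 had at most 3.23 CPM in both libraries with the Gpr56 vector, against 10.1 and 10.2 CPM with the empty vector (-1.69, adjusted p = 1.97e-05). The list of GPR56 partners and other transglutaminases gave 2 higher of 4 tested, Adgrg1 itself among them, and the tetraspanin partner genes Cd9 (0.15) and Cd81 (0.10) were not called.

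Genes that respond to RhoA through SRF or YAP gave 1 higher and 2 lower of 12, with a median of -0.04. Vcl, the focal adhesion gene vinculin, rose by 0.25 (adjusted p = 0.0037). Cyr61 fell by 0.26 (adjusted p = 0.0032). Without 4T1 empty library 2 the calls of Vcl (0.077), Cyr61 (0.11) and Grk2 (0.067) were lost. The YAP targets Ctgf (0.03) and Ankrd1 (-0.09) were not called. In TS/A 0 genes were called in each of these 10 lists by edgeR, and in the fit of 8 libraries the adjusted p of the genes named from them in 4T1 was 0.086 to 0.78, except for Adgrg1 (0.0085) and Lpar1 (0.034).

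**Figure D5:**
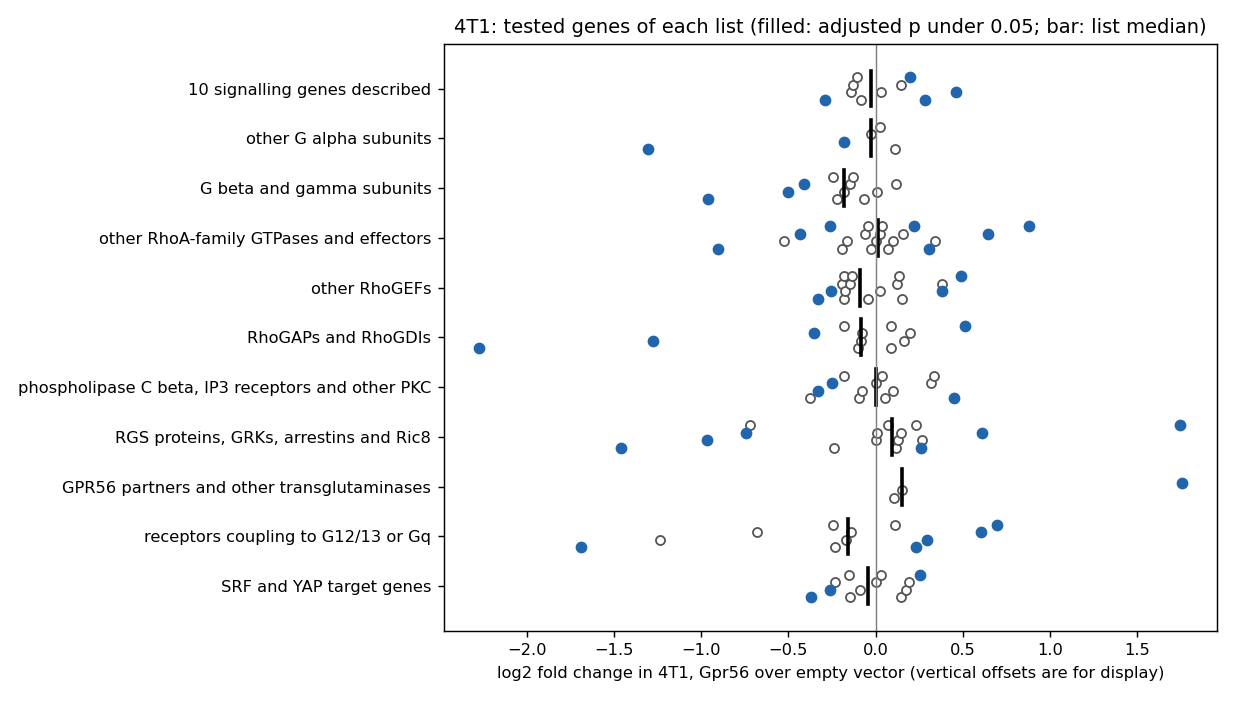
Log2 fold change in 4T1, Gpr56 over empty vector (horizontal axis), of the tested genes in the list described and in 10 related lists, one row per list, with filled points where the adjusted p was under 0.05 and a bar at the list median; Adgrg1 (5.15) is left out. Points lie on both sides of 0 in most rows, and the G beta and gamma subunits have no filled point right of 0.

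Markers of epithelial cells, the type of the line itself, and markers of other cell types were also compared in 4T1. Epithelial markers gave 6 higher and 0 lower of 7, with Cldn4 at 265 and 284 CPM with the Gpr56 vector against 107 and 111 CPM with the empty vector (1.33, adjusted p = 1.92e-09). Immune markers summed to 13.9 and 18.1 CPM with the Gpr56 vector against 7.04 and 6.57 CPM with the empty vector, nearly all of it Cd68 (1.19, adjusted p = 1.07e-04), a lysosomal protein gene, while Cd3e and Adgre1 were at 0 in all 8 libraries and Ptprc was at 0 in 6. Fibroblast markers summed to 8.64 and 9.51 CPM with the Gpr56 vector against 15.4 and 15.2 CPM with the empty vector, and endothelial markers to at most 0.897 CPM in any library. The part of these markers in the changes of the signalling genes was not tested.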

How the data were processed

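Bulk RNA sequencing of 8 libraries, 2 in each of 4 groups, was used. Per the labels' protocols, the RNeasy Mini Kit was used for RNA and the TruSeq RNA kit v2, which does not mark strand, for libraries. Each deposited table gives, per the file headers, a whole-number read count and an RPKM value for 65042 transcripts. Neither the labels nor the file headers name the aligner, counter or genome build, or how reads were divided between transcripts, which bears on every transcript value. Deposited RPKM values were used only for levels between genes, summed over transcripts.

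Counts were summed by gene name (22026 names, 15815 with any read, 0 rows without a name). Identifiers of 65023 transcripts were found in GENCODE M21 (GRCm38), the source of gene coordinates, and 19 were not; sums by that annotation were the same for all 10 genes. Groups follow the vector in the characteristics, and line and replicate number follow the titles. Tests used edgeR 4.0.16 in R 4.3.3 with filterByExpr, TMM, glmQLFit and glmQLFTest, and Benjamini-Hochberg adjustment over all tested genes. Each vector comparison was fitted on the 4 libraries of its line, and the difference and line comparisons on all 8. Transcript tests used the same model on single transcripts. Standard errors were derived from the fold change and the F statistic. Scripts were tested on simulated data. Replicate pairs differed beyond sampling noise (3.58 to 118 in chi-square over its degrees of freedom), so none was merged.

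The members and lists were chosen with earlier results of these data known. Genes named from the lists are up to 2 per direction with the smallest p among called genes whose higher group averaged 10 CPM or more; genes given as not called, and the transcript shares, were chosen after their values were seen. Alternatives were other scaling, DESeq2 1.42.0, limma-voom (limma 3.58.1), other filters, a replicate block, the fit of 8 libraries and each library left out. Some genes that this rule names and 1 promoter window are not reported here.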

Additional observations from a re-analysis of the deposited data

Results flagged for a closer look

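Adgrg1, the transduced gene, was picked out because its vector effect differed between the lines by a test of that difference, -5.67 on the log2 scale (TS/A minus 4T1, SE 0.55, adjusted p = 0.020 by edgeR). It had 22.6 and 13.3 CPM in TS/A labelled Gpr56 against 34.8 and 16.3 CPM in TS/A labelled empty, and 90.5 and 100.1 CPM in 4T1 with the Gpr56 vector against 2.53 and 2.77 CPM with the empty vector. The call of the difference was lost in 6 of 16 other settings, each of which left out 1 library, with values of -6.11 to -5.34 and adjusted p of 0.10 to 0.27. None of the 10 signalling genes met the same criterion. With 2 libraries in each group, single libraries could not be tested as outliers.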

How the results depend on the processing

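The count of the 10 genes called in 4T1 was 4, and it was 2 with DESeq2, 0 in the fit of 8 libraries and 2 to 4 with 1 library left out. Over all genes it was 2588, and 1549 with DESeq2, 27 in the fit of 8 libraries and 1403 to 2748 with 1 library left out. In TS/A, where 0 genes were called, it was 3 with DESeq2, 4 without a filter, 1 in the fit of 8 libraries and 4 to 1140 with 1 library left out, the highest without TS/A empty library 2. The difference between the lines was called for 8 genes, and for 4 with library totals, 66 with DESeq2, 60 without a filter, 2 with limma-voom and 0 to 2391 with 1 library left out, the highest again without TS/A empty library 2; among the 10 genes it was 0, and 0 to 3 with 1 library left out. TS/A against 4T1 gave 5674 genes, and 3335 to 7853 with 1 library left out, and 4 of the 10 genes, and 3 to 6. The cause was not tested. A left-out library leaves 1 library in its group, which is assumed to vary like the others.

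The labels do not say that replicate numbers pair the samples. Deviations of same-numbered libraries correlated over genes at 0.31 between the TS/A groups, and at -0.06 to 0.03 in the other 5 pairs of groups, so a shared number went with shared deviations within TS/A only. With a replicate block the calls were 26 in TS/A and 3 for the difference, and the 10 genes gave 4 in 4T1, 0 in TS/A, 0 for the difference and 4 between the lines. The scaling moved the median of all genes by under 0.05.

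Signs changed mostly where a library was left out. In TS/A the ranges were -0.093 to 0.11 for Gna12, -0.42 to 0.21 for Gna13, -0.34 to 0.22 for Gnaq, -0.063 to 0.097 for Gna11, -0.21 to 0.14 for Rhoa, -0.22 to 0.23 for Arhgef1, -0.21 to 0.38 for Arhgef11, -0.37 to 0.40 for Arhgef12, -0.33 to 0.16 for Prkca, -0.35 to 0.24 for Tgm2 and -0.93 to 0.14 for Adgrg1. For the difference they were -0.14 to 0.081 for Gna12, -0.33 to 0.32 for Gna13, -0.56 to 0.029 for Gnaq, -0.081 to 0.25 for Rhoa, -0.14 to 0.48 for Arhgef11, -0.67 to 0.12 for Arhgef12, -0.060 to 0.45 for Prkca and -0.22 to 0.39 for Tgm2. Between the lines they were -0.17 to 0.16 for Rhoa, -0.14 to 0.50 for Gna13, -0.22 to 0.39 for Arhgef11 and -0.76 to 0.025 for Arhgef12. Rhoa between the lines was also -0.0011 with the replicate block and -0.0024 with limma-voom. In 4T1 all 10 genes kept their sign in the 12 settings tried, and Arhgef1, Gnaq and Gna11 kept their calls between the lines in 17 settings. The lowest counts of the 10 genes were those of Tgm2 (259 reads) and Arhgef11 (263 reads) in 4T1 Gpr56 library 2, where depth limits precision most.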
